A study of Mus musculus with 30 samples.

Results

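Respiratory complex I, the NADH:ubiquinone oxidoreductase of the mitochondrial inner membrane, was followed through its nuclear genes in the left ventricle of mice with and without pressure overload. The genes taken were those whose mouse symbol starts with Nduf and whose mean over all 30 libraries was at least 1 CPM (counts of a gene per 1000000 counts of the library). This held for 47 of the 48 Nduf genes listed, among 24467 genes in all. They comprised 35 structural subunits, the 8 assembly factors Ndufaf1 to Ndufaf8, Ndufa4 and its paralog Ndufa4l2, and the near-identical copies Ndufb4c and Ndufs5-ps. All 47 had enough counts to be tested, with at least 116 counts in every library. The member with the lowest mean was Ndufaf2 at 13.6 CPM, and the gene left out was Ndufs5 at 0.268 CPM.

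The mice were non-transgenic (NTG, called wild type in the sample titles) or transgenic for hRXFP1 (TG), the human receptor of the hormone relaxin, which the series title describes as specific to cardiomyocytes. In either genotype the aortic arch had been tied narrow for 8 weeks (transverse aortic constriction, TAC), which makes the left ventricle pump against a higher pressure, or the operation was a Sham. There were 5 hearts in each Sham group and 10 in each TAC group, and every heart gave 1 library. The promoter that drives the transgene, the strain, the age and the sex of the mice are not given in the sources used here. The labels name the samples of a group as separate replicates without saying more, so p-values measure the spread between these libraries. For each gene this spread is pooled over the 4 groups, unless a fit of fewer groups is named. The counts are of mouse genes, and the human transgene was not checked here. Library totals ran from 9231678 to 13093351 counts, and the 47 genes held between 0.895% and 1.58% of the counts of a library.

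Complex I passes electrons from NADH to ubiquinone and pumps protons across the inner membrane. A peripheral arm in the matrix carries the flavin and the iron-sulfur clusters, and a membrane arm carries the proton channels. Core subunits do the chemistry, accessory subunits surround them, and assembly factors act while the complex is built but are absent from the finished enzyme. The membrane-bound core subunits are encoded by mitochondrial DNA, and the files list 0 mitochondrially encoded genes, so what follows covers the nuclear-encoded part only. The heart relies on oxidative metabolism, and its muscle cells are densely packed with mitochondria.

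Nuclear respiratory factor 1 (NRF1) and estrogen-related receptors (ERR) are transcription factors known to act on genes of the respiratory chain. Promoters were read from RefSeq on GRCm38.p6 as 250 bases before to 50 bases after each annotated start, and 39 of the 47 genes had an entry. The NRF1 motif, GCGCA followed by any base and GCGC, searched on both strands, occurred in 21.2% of 33 subunit promoters (7 promoters of 6 genes), in 2 of 7 assembly factor promoters and in 4.60% of all 32851 promoters in the table. The ERR motif AAGGTCA occurred in 6.06% of the subunit promoters against 4.72% of all, and CCGGAAG, bound by ETS factors such as GABP, in 12.1% against 8.86%. AANATGGC, bound by YY1, occurred in 36.4% of the subunit promoters against 6.05% of all, but 8 of its 13 matches in subunits hold the ATG of an annotated start codon. The matches describe letters in these windows and are no evidence of binding. The stretches before the start are printed below for Ndufb4 and Ndufaf4, the 2 members called higher in TG than in NTG hearts after TAC (threshold given below). That share of members was near the 4.56% of all genes called higher, and Ndufb4 lost its call in several alternative fits. Stretches are also printed for Ndufa8, Ndufa5 and Ndufs6, which hold an NRF1 match within their last 60 bases. Each is written 5' to 3' on the strand of the gene, and capitals mark matches to the NRF1 motif and, in Ndufb4, also to the ERR motif.
Ndufb4 (chr16:37654369-37654568, minus strand): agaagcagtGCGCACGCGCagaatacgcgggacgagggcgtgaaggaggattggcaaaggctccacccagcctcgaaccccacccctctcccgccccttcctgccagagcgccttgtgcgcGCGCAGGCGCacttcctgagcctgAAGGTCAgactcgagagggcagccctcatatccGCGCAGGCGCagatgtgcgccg
Ndufaf4 (chr4:24897883-24898082, plus strand): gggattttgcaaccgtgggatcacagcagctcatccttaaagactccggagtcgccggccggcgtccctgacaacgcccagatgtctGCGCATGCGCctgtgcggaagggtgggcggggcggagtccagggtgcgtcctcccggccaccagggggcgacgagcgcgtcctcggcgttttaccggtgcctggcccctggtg
Ndufa8 (chr2:36049339-36049398, minus strand): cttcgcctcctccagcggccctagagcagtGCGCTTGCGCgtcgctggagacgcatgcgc
Ndufa5 (chr6:24527691-24527750, minus strand): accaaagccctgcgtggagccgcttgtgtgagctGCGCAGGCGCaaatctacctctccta
Ndufs6 (chr13:73328483-73328542, minus strand): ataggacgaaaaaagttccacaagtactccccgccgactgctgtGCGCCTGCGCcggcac

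In Ndufb4 the NRF1 matches begin 191, 79 and 22 bases before the start, and the ERR motif begins 55 bases before it. In Ndufaf4 there is 1 match, which lies between the outer and the middle match of Ndufb4 in its distance from the start. The matches of Ndufa8, Ndufa5 and Ndufs6 begin 30, 26 and 16 bases before it, those of Ndufa8 and Ndufs6 on the opposite strand.

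Subunit transcripts were far more abundant than those of the assembly factors. Per kilobase of annotated exon (GENCODE vM21, all exons of all isoforms of a gene joined), the median over the 35 subunits was 184 CPM. Over the 8 assembly factors it was 15.1 CPM. The assembly factors spanned 4.58 CPM per kilobase for Ndufaf2 to 37.3 for Ndufaf1. Subunits spanned 6.80 CPM per kilobase for Ndufb2 to 593 for Ndufb9, both of the distal membrane arm, so the ranges of the classes overlapped. This span depends on the joined exon length, which was 5628 bases for Ndufb2 and 1031 for Ndufb9. Before division by length their means were 38.3 and 611 CPM.

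Some levels are uncertain because reads can be split between near-identical genes. Ndufs5, a subunit gene on chromosome 4, had 0 to 8 counts per library, while the transcribed pseudogene Ndufs5-ps on chromosome 16 took a median of 99.8% (99.5% to 100%) of the counts of the pair. The copy Ndufb4c on chromosome 15 took a median of 71.9% (67.7% to 74.1%) of the counts assigned to it and Ndufb4. Values for Ndufb4 below therefore describe the reads assigned to that gene, and those of Ndufb4c are given beside them. The strand setting of the counting is not given in the sources used here, so reads of overlapping antisense transcripts cannot be told apart.

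The first comparison asked how complex I genes differed after TAC in hearts without the transgene. They were lower as a group: 28 of the 47 genes fell and 0 rose at an adjusted p under 0.05, the threshold for a call (edgeR quasi-likelihood F test, Benjamini-Hochberg over 13588 genes). In the same comparison 17.6% of all tested genes were called, 8.12% lower and 9.46% higher. The log2 fold change was below 0 for 46 of the 47 genes, with a median of -0.26, against a median of 0.00 over all genes. Among structural subunits 24 of 35 fell, with a median log2 fold change of -0.29 (-18.1%). Of the 8 assembly factors 2 fell, with a median of -0.15 (-9.71%). For 0 of the 47 genes were the TAC hearts clear of the range of the Sham hearts, which held for 1.68% of all tested genes.

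The count changed when single Sham hearts were left out and between fits. It was 7 without NTG Sham replicate 4, where 4.78% of all genes were called lower, and 12 without NTG Sham replicate 3, where 5.29% were. These hearts held the highest subunit levels of their group, and without them the median was -0.23 and -0.24. When NTG Sham and NTG TAC hearts were fitted without the TG hearts, 0 of the 47 genes passed, against 1.64% of all genes, and the median was -0.26. At an unadjusted p under 0.05, 30 were lower in that fit, against 11.8% of all genes. With 1 surrogate variable (hidden variation estimated from the counts) as a covariate 0 passed, against 1.56% of all genes, and the median was -0.09. At an unadjusted p 11 were then lower, against 7.37% of all genes.

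**Figure D1:**
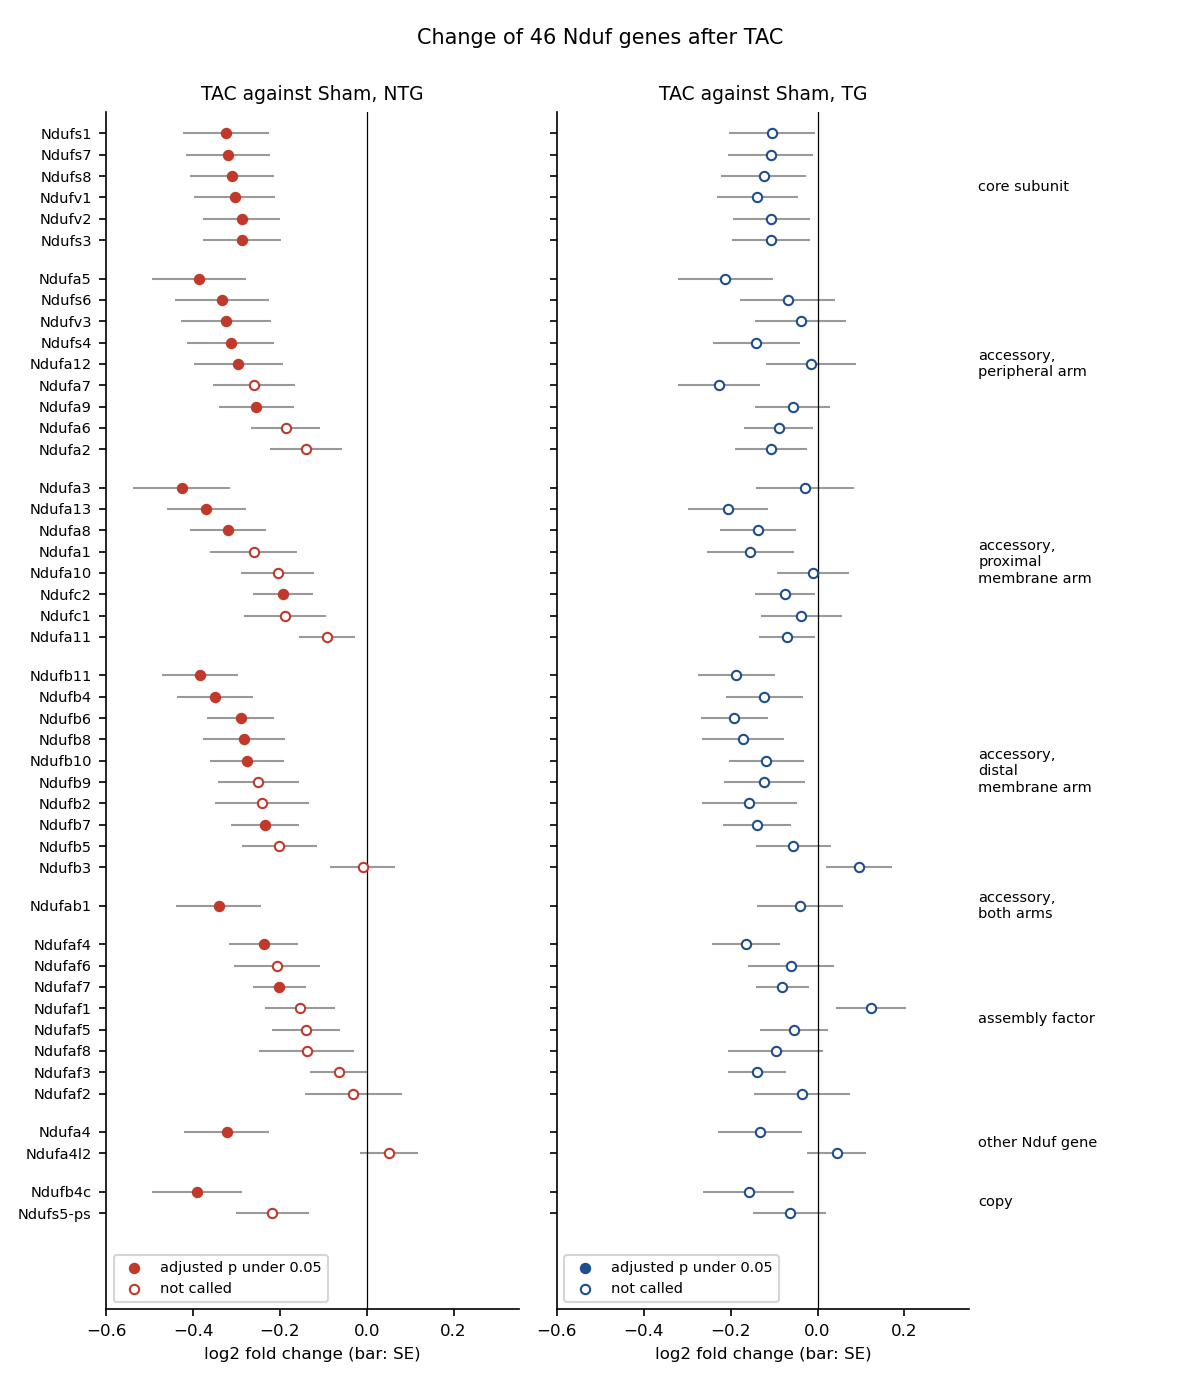
Log2 fold change (x axis) with its SE for 46 Nduf genes (y axis, grouped by role) after TAC in NTG hearts (left, red) and TG hearts (right, blue). Filled points passed the adjusted threshold in the fit of all 4 groups, 27 in NTG and 0 in TG hearts. Most points lie left of 0 in both.

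The core subunits of the peripheral arm were a uniform group, and the 6 described here all fell, with log2 fold changes between -0.32 and -0.29. Ndufs1, a large iron-sulfur subunit of the NADH-oxidising module, stood at 759.7, 757, 773, 785 and 677 CPM in the NTG Sham hearts (replicates 1 to 5). These and all following levels per heart are CPM scaled by TMM factors, which correct for differences in composition between libraries. In NTG TAC hearts it ran from 380.3 over a median of 601 to 757. Replicate 10 was lowest, 7 of 10 TAC hearts lay under every Sham heart, and replicates 1, 4 and 7 lay within the Sham range. The log2 fold change was -0.32 ± 0.10 (SE, adjusted p = 0.0228).

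Ndufv1, which binds NADH and the flavin, stood at 761, 782, 843, 883 and 705 CPM in NTG Sham hearts (replicates 1 to 5) and between 443 and 775 CPM, with a median of 655, in NTG TAC hearts. The groups overlapped, with 7 of 10 TAC hearts under the lowest Sham heart, and the log2 fold change was -0.30 ± 0.09 (adjusted p = 0.0234).

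The remaining core genes described here gave similar differences. Ndufs7, which holds the iron-sulfur cluster next to the quinone, averaged 533 ± 45.02 CPM (SD, n = 5) in the Sham hearts and 427 ± 85.5 (SD, n = 10) in those with TAC, and its log2 fold change was -0.32 ± 0.10 (adjusted p = 0.0238). The iron-sulfur subunit Ndufs8 stood at -0.31 ± 0.10 and Ndufs3, a subunit of the quinone module, at -0.29 ± 0.09. Ndufv2, an iron-sulfur subunit beside Ndufv1, stood at -0.29 ± 0.09. The adjusted p of these 3 genes lay between 0.0253 and 0.0266. Each of these 6 core genes lost its call without NTG Sham replicate 4, and all but Ndufs1 also without replicate 3.

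Accessory subunits of the peripheral arm brought the total of that arm to 13 of 16 lower. Ndufa5, a subunit of the quinone module, stood at -0.39 ± 0.11 on the log2 scale (adjusted p = 0.0158). Ndufs6 stood at -0.33 ± 0.11, Ndufv3 at -0.32 ± 0.10, Ndufs4 at -0.31 ± 0.10, Ndufa12 at -0.30 ± 0.10 and Ndufa9 at -0.26 ± 0.09, all called. With 1 heart left out, Ndufa12 lost its call in 13 fits and Ndufa9 in 6, and each lost it in 5 other alternative fits. Ndufs4 is known from knockout mice as a subunit whose loss gives a Leigh-like brain disease. Ndufa7 at -0.26 (adjusted p = 0.0524), Ndufa6 at -0.19 (0.0986) and Ndufa2 at -0.14 (0.246) did not pass. Ndufab1, the mitochondrial acyl carrier protein, which sits in both arms, gave -0.34 ± 0.10 (adjusted p = 0.0171) and was called.

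In the membrane arm the size of the difference varied more from gene to gene. Of the proximal part 4 of 8 subunits fell, and of the distal part 6 of 10. Ndufa3, a small subunit of the proximal part, had 260.5, 243, 293, 298 and 310.0 CPM in NTG Sham hearts (replicates 1 to 5) and 140.5 to 291 CPM, median 218, in NTG TAC hearts. Replicates 10, 2 and 3 were lowest, and 8 of 10 TAC hearts were under the lowest Sham heart. Its log2 fold change, -0.43 ± 0.11 (adjusted p = 0.0114), was the lowest of the 47. Ndufa13, also known as GRIM19, fell by 0.37 ± 0.09 (adjusted p = 0.00824), Ndufa8 by 0.32 ± 0.09 (0.0140) and Ndufc2 by 0.19 ± 0.07 (0.0491).

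Ndufb11, of the distal part, had the smallest p of the 47 genes. It stood at 465, 483, 537, 596 and 454 CPM in NTG Sham hearts and at 272 to 465.8 CPM, median 403, in NTG TAC hearts. Of the TAC hearts 9 of 10 lay under the lowest Sham heart, with replicate 4 the exception, and the log2 fold change was -0.38 ± 0.09 (adjusted p = 0.00560). The reads assigned to Ndufb4 gave -0.35 ± 0.09 (adjusted p = 0.00904) and those of the copy Ndufb4c -0.39 ± 0.10 (0.0120). Ndufb6, Ndufb8, Ndufb10 and Ndufb7 were also called, between -0.29 and -0.24. At the other end, Ndufb3 stood at -0.01 ± 0.08 (adjusted p = 0.946) and Ndufa11, of the proximal part, -0.09 ± 0.06 (0.340). The remaining 6 membrane-arm subunits, Ndufa1, Ndufa10, Ndufc1, Ndufb2, Ndufb5 and Ndufb9, did not pass, with values between -0.26 and -0.19.

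The assembly factors that fell were Ndufaf4 and Ndufaf7. Ndufaf4, which acts with Ndufaf3 on the quinone module, had 92.0, 92.8, 86.1, 72.4 and 91.3 CPM in NTG Sham hearts (replicates 1 to 5) and 61.0 to 87.0 CPM, median 72.7, in NTG TAC hearts. Sham replicate 4 stood well below the other Sham hearts, 5 of 10 TAC hearts were lower than it, and the log2 fold change was -0.24 ± 0.08 (adjusted p = 0.0372). Ndufaf7, a mitochondrial arginine methyltransferase, had 38.4, 40.9, 38.8, 40.2 and 34.6 CPM after Sham and 28.8 to 37.98 CPM, median 33.0, after TAC. Of the TAC hearts 6 of 10 were under all Sham hearts, and the log2 fold change was -0.20 ± 0.06 (adjusted p = 0.0229). Ndufaf4 lost its call without any of 8 single hearts (NTG Sham replicate 1, 2, 3 or 5, NTG TAC replicate 2, 5, 9 or 10), with an adjusted p of up to 0.0952. Ndufaf7 lost it without NTG Sham replicate 2 or 4, at up to 0.0645. In other alternative fits Ndufaf4 lost its call in 5 and Ndufaf7 in 3. For both genes these included the fit of the compared groups alone and that with 1 surrogate variable.

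The other 6 assembly factors did not pass. Ndufaf6 stood at a log2 fold change of -0.21 ± 0.10, Ndufaf1, a member of the assembly complex of the membrane arm, at -0.15 ± 0.08, and Ndufaf5, known in human cells to hydroxylate an arginine of NDUFS7, at -0.14 ± 0.08. Ndufaf8, Ndufaf3 and Ndufaf2 lay between -0.14 and -0.03. The subunit values ran from -0.43 to -0.01 and those of the assembly factors from -0.24 to -0.03, and the difference between these classes was not tested.

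Of the genes that share the name only, Ndufa4 is now counted as a subunit of cytochrome c oxidase, complex IV. Its NTG Sham hearts had 754, 813, 965, 956 and 737 CPM and its NTG TAC hearts 452 to 823 CPM, median 705. Its log2 fold change was -0.32 ± 0.10 (adjusted p = 0.0222), and the groups overlapped. Ndufa4l2, known as a gene induced by hypoxia, had 43.0, 41.4, 50.7, 47.1 and 42.4 CPM after Sham and 40.8 to 51.6 CPM, median 46.4, after TAC. Its log2 fold change was 0.05 ± 0.07 (adjusted p = 0.634), the one value above 0 among the 47.

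**Figure D2:**
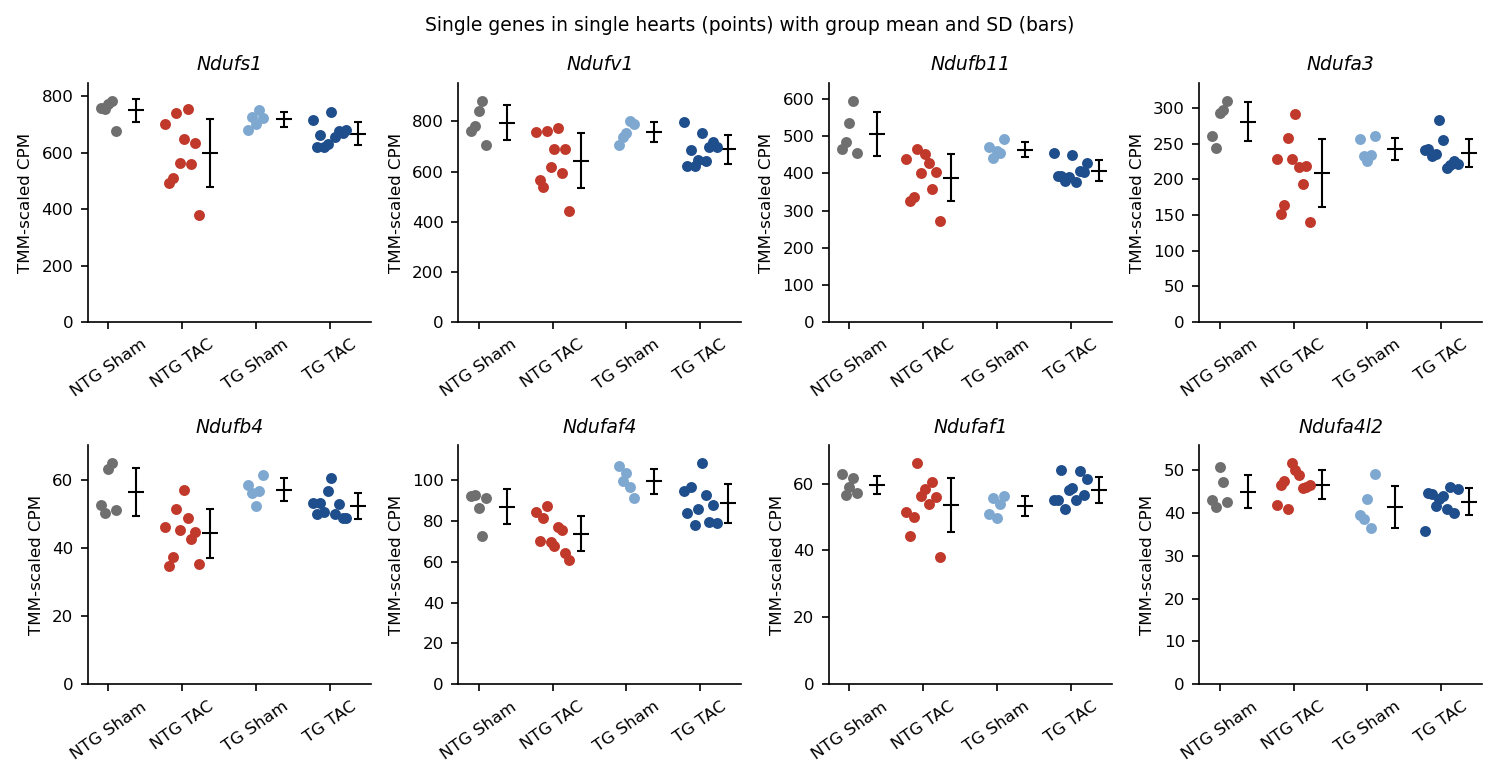
TMM-scaled CPM (y axes) of 8 Nduf genes in each heart (points) of the 4 groups, with group mean and SD (bars). In NTG TAC hearts Ndufs1 spans 380.3 to 757, while Ndufa4l2 stays between 40.8 and 51.6.

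Single NTG TAC hearts differed widely in subunit levels, and whether the subunits moved together within a heart was not tested. Summed over the 35 subunits, NTG Sham hearts had 12660.3, 12450.5, 13892, 14611 and 12148 CPM (replicates 1 to 5). NTG TAC hearts ran from 7468 over a median of 11348 to 12905. The lowest were replicates 10 (7468), 3 (9134), 2 (9171), 8 (10403) and 5 (11100.2), at 56.8%, 69.4%, 69.7%, 79.1% and 84.4% of the NTG Sham mean. Replicates 4 and 6 stood at 97.96% and 98.12%, so the groups overlapped.

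Counted gene by gene, NTG TAC replicate 10 had all 35 subunits under the lowest NTG Sham heart. Replicates 3, 2, 8 and 5 had 34, 33, 31 and 27 of them. Replicates 6 and 4 had 5 and 1. For the 8 assembly factors the same count was 8 in replicate 10, 6 in replicates 2 and 3, and 0 to 4 in the others. The share of all tested genes under the lowest Sham heart is not given here for single hearts. These counts can therefore not be taken as particular to complex I.

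The 5 NTG TAC hearts with the lowest subunit sums were also the 5 with the highest Nppa, which encodes atrial natriuretic peptide and is raised in loaded ventricles. Their Nppa levels were 8264 (replicate 10), 9003 (3), 9455 (2), 5661 (8) and 7067 CPM (5), against 386 to 1610 CPM (the highest in replicate 9) in the other 5. NTG TAC replicates 6 and 4, with the highest subunit sums, had 984 and 930 CPM. In NTG Sham hearts Nppa ran from 239 to 460.5 CPM. The same 5 hearts had the highest Myh7, the slow myosin heavy chain, at 1372 to 4028 CPM against 785 to 1083 CPM in the others.

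**Figure D3:**
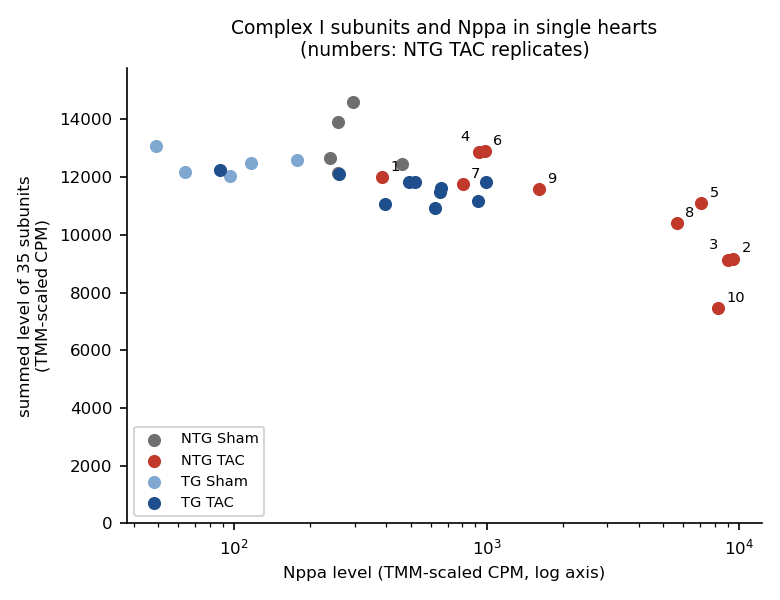
Summed TMM-scaled CPM of 35 subunits (y axis) against Nppa (x axis, log scale) in each of 30 hearts, coloured by group, with NTG TAC replicate numbers. Replicates 5, 8, 2, 3 and 10 lie to the right and low, with Nppa of 5661 or more.

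Bulk tissue cannot separate fewer muscle cells from less RNA per cell. The summed level of 10 cardiomyocyte markers was also lower in the hearts with low subunit sums, at 59.2%, 80.5%, 81.2%, 86.0% and 82.5% of the NTG Sham mean in replicates 10, 3, 2, 8 and 5. It ran from 54077 to 88141 CPM in NTG TAC hearts and from 84807 to 95755 CPM in NTG Sham hearts, and 3 of the 10 markers fell (Tnnt2, Tnni3 and Myl2) while Mybpc3 rose. Subunits relative to these markers were 13.4% to 15.3% in NTG Sham hearts and 12.4% to 14.9% in NTG TAC hearts, lowest in replicates 2 and 3. NTG TAC replicate 10, at 13.8%, lay within the NTG Sham range. In TG hearts this ratio was 13.7% to 16.0% after Sham and 13.3% to 14.3% after TAC. Its means after Sham and TAC were 14.40% and 13.79% in NTG hearts and 14.46% and 13.74% in TG hearts. In NTG hearts fibroblast markers moved the other way after TAC: 4 of 7 rose (Col1a1, Col1a2, Col3a1 and Lum) and 0 fell. Pdgfra, Dcn and Tcf21 were not called. The sum of the 7 was 356% of the NTG Sham mean in NTG TAC replicate 10. For TAC in NTG hearts 9.46% of all tested genes rose and 8.12% fell. The part of cell composition in the subunit differences was not tested.

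Markers of other cell types were summed in the same way. Of 5 macrophage markers 1 rose after TAC in NTG hearts, and their sum ran from 112 to 151 CPM after Sham and from 102.5 to 385 CPM after TAC. Of 5 endothelial markers 0 were called. Of 3 tested lymphocyte markers 2 fell, and their sum was 103.03 CPM in 1 NTG Sham heart, replicate 5, with a group median of 3.99 CPM. Without this heart 26 Nduf genes were called, against 28 with it, and the share of all genes in that fit is not given here. Of the fat markers, Cidea rose and the others were too low to be tested, with Ucp1 at 0 in all TG hearts. Sums of 3 atrial markers stayed between 1.09 and 7.72 CPM over the 4 groups, with 0 called and Sln at 0 in all TG Sham hearts.

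The subunit sum was also set against that of the assembly factors. The subunit sum was 42.4 to 47.9 times the assembly factor sum in NTG Sham hearts, and 35.04 to 38.79 times in NTG TAC replicates 10, 3, 8 and 2. In the other 6 NTG TAC hearts it was 41.9 to 45.8 times. In TG hearts it was 40.2 to 43.4 times after Sham and 38.4 to 42.6 times after TAC, and the means of the TAC groups were close, 40.79 ± 3.70 in NTG and 40.88 ± 1.53 in TG hearts (SD, n = 10 each). Assembly factor sums were 298, 293, 308, 305 and 282 CPM in NTG Sham hearts and 213 to 307 CPM, median 266, in NTG TAC hearts.

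**Figure D4:**
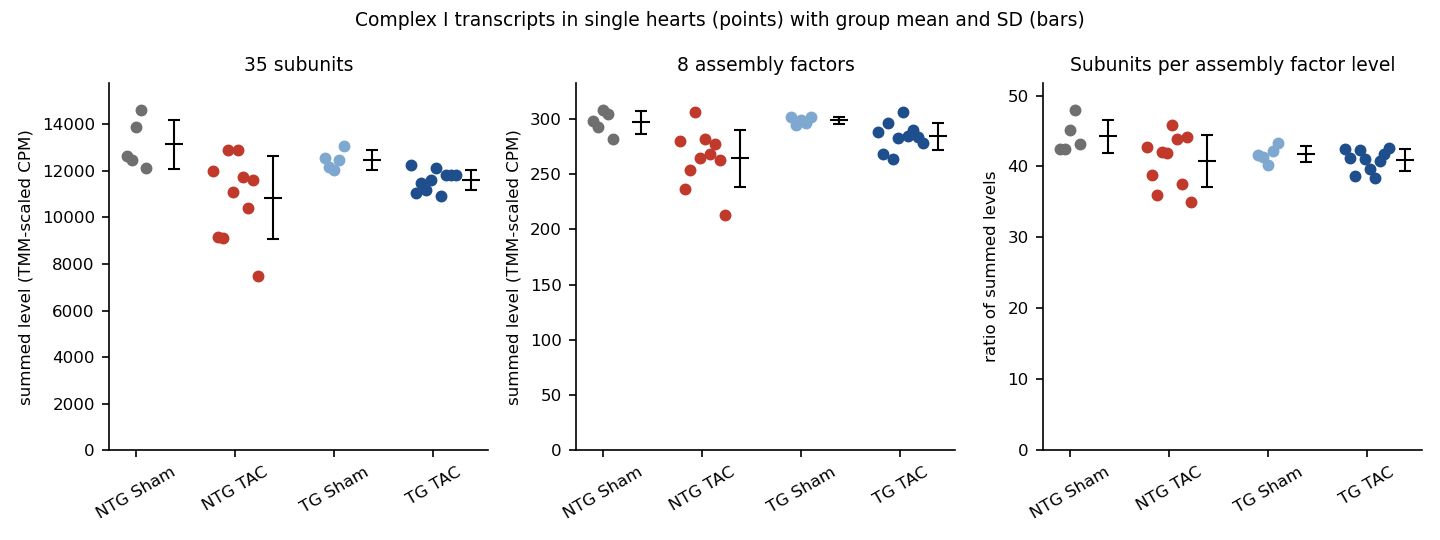
Summed TMM-scaled CPM of 35 subunits (left) and 8 assembly factors (middle), and their ratio (right), in each heart (points) of the 4 groups, with mean and SD (bars). NTG TAC hearts spread from 7468 to 12905 CPM of subunits, TG TAC hearts from 10929 to 12243.

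The second comparison asked the same in hearts with the transgene. Here 0 of the 47 genes were called, against a background of 1.43% of all genes (0.530% lower, 0.898% higher). At an unadjusted p under 0.05, 6 were lower, where 6.87% of all genes were. DESeq2 called 0. Limma voom with sample quality weights called 3, all lower, near the 4.74% of all genes it called lower. The fit of TG hearts alone called 6, all lower, against 3.01% of all genes. The log2 fold change was below 0 for 44 of 47 genes, with a median of -0.11, and for the subunits the median was also -0.11 (-7.18%). In the fit of TG hearts alone the called genes were Ndufa13, Ndufa5, Ndufa7, Ndufb6, Ndufb11 and Ndufb8. In that fit Ndufa13 stood at -0.20 ± 0.05 (adjusted p = 0.0171).

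Ndufb6, of the distal membrane arm, had the smallest p of the members in TG hearts. It stood at 83.7, 83.0, 87.3, 88.7 and 94.3 CPM in TG Sham hearts (replicates 1 to 5) and at 68.1 to 82.9 CPM, median 76.6, in TG TAC hearts. All 10 TG TAC hearts lay below all 5 TG Sham hearts, which held for 1 of the 47 members and 0.699% of all genes, and the log2 fold change of -0.19 ± 0.08 did not pass (adjusted p = 0.221). Ndufa7 stood at -0.23 ± 0.09 (adjusted p = 0.240) and Ndufa13 at -0.21 ± 0.09 (0.280). The 6 core subunits described above lay between -0.14 and -0.10. Ndufs1 had 682, 729, 704, 753 and 725 CPM in TG Sham hearts and 621 to 746 CPM, median 667, in TG TAC hearts, with 8 of 10 TAC hearts under the lowest Sham heart and a log2 fold change of -0.10 ± 0.10 (adjusted p = 0.679).

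Among assembly factors of TG hearts, Ndufaf4 stood at -0.16 ± 0.08 (adjusted p = 0.329), Ndufaf3 at -0.14 ± 0.07 (0.330) and Ndufaf1 at 0.12 ± 0.08 (0.505). Ndufaf1 had 51.0, 55.5, 49.7, 53.9 and 56.3 CPM in TG Sham hearts and 52.4 to 63.9 CPM, median 57.3, in TG TAC hearts. The 3 members above 0 in TG hearts were Ndufaf1, Ndufb3 (0.10 ± 0.08) and Ndufa4l2 (0.04 ± 0.07).

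In these values TG TAC hearts were spread less widely than NTG TAC hearts, a difference in spread that was not tested. Subunit sums were 12575, 12173, 12021, 12484 and 13085 CPM in TG Sham hearts and 10929 to 12243 CPM, median 11716, in TG TAC hearts, 87.7% to 98.2% of the TG Sham mean. The coefficient of variation between hearts had a median over the 35 subunits of 17.3% in NTG TAC and 6.12% in TG TAC hearts, and of 9.89% and 5.79% in NTG and TG Sham hearts. The main fit pooled the dispersion of each gene over the 4 groups, so its p-values do not follow these differences in spread. By these medians a pooled value understates the spread of NTG TAC hearts and overstates that of TG TAC hearts. With only the groups compared, 0 members were called for TAC in NTG hearts (1.64% of all genes) and 6 lower in TG hearts (3.01% of all genes). The main fit called 28 and 0, so the contrast of these counts depends on the fit. Each TG TAC heart had between 8 and 31 subunits under the lowest TG Sham heart, again without the share of all genes. TG Sham hearts were spread less widely than NTG Sham hearts, so these counts and those of NTG TAC hearts rest on unlike limits. Nppa did not pass 994 CPM in any TG TAC heart, and Myh7 did not pass 882 CPM. The lowest subunit sum, in replicate 7, came with 626 CPM of Nppa, and the highest Nppa, in replicate 8, with a sum of 11834 CPM. Cardiomyocyte markers stood at 92.8% to 104.07% of the TG Sham mean, and of that list and the 6 other marker lists 0 genes were called in TG hearts.

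**Figure D5:**
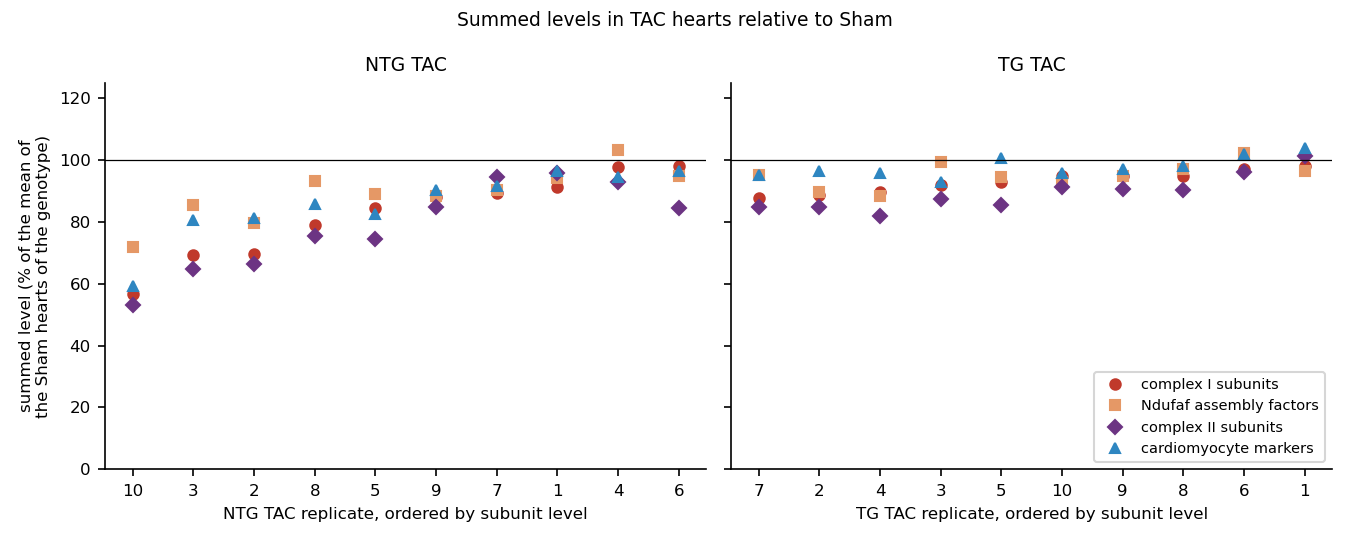
Summed levels of 4 gene groups in each TAC heart as a percentage of the mean of the Sham hearts of the same genotype (y axis), with hearts ordered by subunit level (x axis). NTG TAC replicate 10 (left) has 56.8% for subunits, 71.8% for assembly factors, 53.2% for complex II and 59.2% for cardiomyocyte markers, while TG TAC hearts (right) lie between 82.0% and 104.07%.

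The test of the difference between the 2 TAC responses, the interaction of genotype and TAC, called 0 of the 47 genes, and 0% of all genes. At an unadjusted p under 0.05, 3 members were higher, where 3.34% of all genes were, and DESeq2 and limma voom also called 0 members. The interaction was above 0 for all 35 subunits, with a median of 0.17, and for 6 of 8 assembly factors, with a median of 0.08. Subunits share their hearts, so these counts are not independent. Ndufa3 had the smallest p at 0.40 ± 0.16 (adjusted p = 0.614), followed by Ndufaf1 at 0.28 ± 0.11 and Ndufab1 at 0.30 ± 0.14 (both 0.614). Ndufa3 stood at -0.03 ± 0.11 in TG hearts. With 1 surrogate variable the median over the members was 0.00.

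TG and NTG hearts were also compared within each operation. After Sham 0 of the 47 genes were called, against 0.729% of all genes (0.596% higher, 0.132% lower), and 1 was higher at an unadjusted p under 0.05, Ndufaf4, where 3.89% of all genes were. DESeq2 and limma voom called 0. The median log2 fold change was -0.08. Ndufaf4 had 106.6, 99.6, 103.3, 96.4 and 91.0 CPM in TG Sham hearts, 4 of 5 of them above all NTG Sham hearts, with a log2 fold change of 0.19 ± 0.09 (adjusted p = 0.664). Ndufaf1, with 63.0, 56.7, 58.9, 61.6 and 57.3 CPM in NTG Sham hearts, had lower values in each TG Sham heart without overlap, as did 1.68% of all genes, and its log2 fold change of -0.16 ± 0.09 did not pass (adjusted p = 0.815). Ndufa3 stood at -0.22 ± 0.13 (0.842) and Ndufa9 at -0.16 ± 0.10 (0.842).

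After TAC 2 of the 47 genes were higher in TG than in NTG hearts and 0 were lower, where 11.4% of all genes were called, 4.56% higher and 6.86% lower. The share of members called higher was near that of all genes. The called members were Ndufaf4 and Ndufb4, chosen for the printed sequences after these values were known. Ndufaf4 ran from 77.98 to 108 CPM, median 86.8, in TG TAC hearts, and 5 of 10 lay above the highest NTG TAC heart, at 87.0 CPM. All 10 were above the NTG TAC mean, and the log2 fold change was 0.26 ± 0.07 (adjusted p = 0.0110). Ndufb4 had 48.7 to 60.4 CPM, median 51.6, in TG TAC hearts and 34.6 to 57.0 CPM, median 45.02, in NTG TAC hearts. Only replicate 6 lay above all NTG TAC hearts, and the log2 fold change was 0.24 ± 0.07 (adjusted p = 0.0282). The copy Ndufb4c stood at 0.18 ± 0.09 (adjusted p = 0.163).

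The count of members called after TAC was 6 without NTG TAC replicate 6 and 4 without NTG TAC replicate 1 or 4. It was 1 when NTG TAC replicate 2, 3 or 10, or else replicate 6 of TG TAC, was left out, in each of which Ndufb4 lost its call, at an adjusted p of up to 0.0664. The share of all genes called in these fits is not given here, so the changes in count cannot be taken as particular to complex I. Ndufaf4 kept its call without any single heart, at an adjusted p of up to 0.0281, but lost it in the edgeR fit with 1 surrogate variable (adjusted p = 0.0882). Ndufb4 also lost its call in that fit, with limma voom and with only the groups compared. In the main fit the next members in order of p were Ndufab1 at 0.22 ± 0.08 (adjusted p = 0.0713) and Ndufa8 at 0.19 ± 0.07 (0.0898). The 6 core subunits described above lay between 0.06 and 0.16, and the median over the 47 genes was 0.08. Comparisons with NTG TAC hearts share those hearts with the first comparison, so their values are not independent of it. In TG TAC against NTG TAC hearts the fibroblast markers Col1a1, Col1a2 and Col3a1 were lower.

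Assembly factors without the Nduf name were looked at next. Of 11 tested, 4 fell after TAC in NTG hearts and 0 rose, where 8.12% of all tested genes fell. Their median log2 fold change was -0.11. Aifm1, the apoptosis-inducing factor needed for respiratory chain assembly, fell by 0.25 ± 0.07 (adjusted p = 0.0196) and Ecsit, of the membrane arm assembly complex, by 0.24 ± 0.08 (0.0302). Tmem70 fell by 0.21 ± 0.07 and Foxred1 by 0.20 ± 0.07. Acad9, the partner of Ndufaf1 and Ecsit, stood at -0.11 ± 0.05 (adjusted p = 0.123). In TG hearts 0 of 11 were called after TAC, and against NTG TAC hearts Tmem186 (0.18 ± 0.06) and Dmac2 (0.18 ± 0.05) were higher in TG TAC hearts. Of all tested genes 4.56% were higher in TG TAC than in NTG TAC hearts.

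Complex II, which feeds electrons to ubiquinone from succinate and is encoded wholly in the nucleus, was set beside complex I. Of its 4 subunits 3 fell after TAC in NTG hearts, where 8.12% of all tested genes fell, with a median over the 4 of -0.35. Sdha, the flavoprotein, fell by 0.40 ± 0.11 (adjusted p = 0.0117), Sdhc by 0.37 ± 0.10 (0.0120) and Sdhb by 0.33 ± 0.09 (0.0132), while Sdhd stood at -0.15 ± 0.08 (0.165). In TG hearts 0 of 4 were called, with a median of -0.16.

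Of 10 regulators of mitochondrial genes, 1 fell after TAC in NTG hearts, the coactivator Ppargc1b at -0.45 ± 0.14 (adjusted p = 0.0318). That share was near the 8.12% of all tested genes called lower in this comparison. Its relative Ppargc1a stood at -0.28 ± 0.14 (adjusted p = 0.157), Nrf1 at -0.19 ± 0.10 (0.181), Esrra at -0.18 ± 0.07 (0.0834) and the mitochondrial DNA packaging factor Tfam at -0.07 ± 0.08 (0.574). The median over the list was -0.17, and 0 were called in TG hearts. Esrrg, an estrogen-related receptor, was higher in TG TAC than in NTG TAC hearts by 0.20 ± 0.06 (adjusted p = 0.0223). That made 1 of the 10 regulators higher, where 4.56% of all tested genes were.

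The sample names carry a number whose meaning the labels do not give, and it reached 100 in 4 of 5 Sham and 3 of 10 TAC hearts without the transgene and in 5 of 5 Sham and 1 of 10 TAC hearts with it. Among hearts with numbers of 100 or more, the subunit sum had a median of 13276 CPM in 4 NTG Sham and 9171 CPM in 3 NTG TAC hearts. Under 100 it was 12148 CPM in 1 NTG Sham heart and a median of 11596 CPM in 7 NTG TAC hearts. For TG hearts the single TAC heart of 100 or more had 12243 CPM beside a Sham median of 12484 CPM, and no TG Sham heart lay under 100. With the number as a term 19 members were lower after TAC in NTG hearts, with a median of -0.30, and 0 in TG hearts. The share of all genes called in that fit is not given here.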

How the data were processed

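Strand-specific mRNA libraries (paired reads of 100 bases, from 1.3 ug of total RNA) were sequenced on the DNBSEQ platform, per the labels' protocols. Trim Galore 0.6.4, TopHat, Bowtie2 2.2.9, edgeR 3.17 and the build mm10 are named in the submitters' processing notes; the counting program, annotation and strand setting are not given in the sources used here. The authors deposited raw counts per Entrez gene and CPM; the deposited CPM equal counts divided by the library total (largest difference 7.28e-12). Symbols came from RefSeq for 24437 of 24467 genes and from GENCODE vM21 for 7.

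From the deposited counts, edgeR 4.0.16 (R 4.3.3) fitted 1 quasi-likelihood model (robust, TMM factors, filterByExpr with a minimum count of 10) with the 4 groups as terms, over the 30 libraries together, so that the groups share each gene's dispersion. Tests were two-sided, with Benjamini-Hochberg adjustment over 13588 genes and 0.05 as the threshold. The SE of a log2 fold change is its size over the root of the F statistic. Values per heart are TMM-scaled CPM. The model was tested on simulated data, with spread set by the level of a gene and not by each gene or group. Of 67 genes changed 1.2-fold it recovered 5 for TAC in NTG hearts and 4 in TG hearts. Of 67 changed 1.5-fold it recovered 50 and 52. A member that was not called can therefore not be taken as unchanged at about 1.2-fold. Alternatives used RLE factors, library totals, no filter, DESeq2 1.42.0, limma 3.58.1 (voom), only the groups compared, a replicate block, the number in the sample name, 1 surrogate variable (sva 3.50.0) and each of 30 libraries left out. No 2 libraries of a group agreed within counting noise (110 pairs, lowest chi-square per degree of freedom 2.85). Genes named are the core subunits, the 3 subunits and 3 Ndufaf genes with the smallest p per comparison, Ndufa4, Ndufa4l2 and those at the CPM threshold; others named in the text were chosen after their values were seen, and 1 gene is counted but not reported here. The members and lists were chosen with earlier results of these data known.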

Additional observations from a re-analysis of the deposited data

Results flagged for a closer look

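Of 112 sets of values (a named gene or a summed level in the hearts of 1 group), 3 held a heart whose gap to its neighbour was wide for the range of its group by Dixon's criterion, which chance passes in about 1 of 20 sets. Ndufs1 was 677 CPM in NTG Sham replicate 5, against 757 to 785 CPM in the other NTG Sham hearts. Ndufa4 was 862 CPM in TG Sham replicate 5, against 713 to 738 CPM. Ndufs7 was 479 CPM in TG Sham replicate 2, against 497 to 505 CPM.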

How the results depend on the processing

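Of the named-gene results, 0 changed sign with a call under any alternative run. For TAC in NTG hearts (28 members called), 24 to 30 were called with RLE factors, library totals, no filter, DESeq2, limma voom and the replicate block, 19 with the number in the sample name, 0 with the groups compared alone, 0 with 1 surrogate variable, and 7 to 35 with 1 heart left out. The cause of these losses was not tested. The share of all genes called is given for some of the alternative fits only. Without it, a change in a count here or below cannot be taken as particular to complex I. For TAC in TG hearts (0 called), limma voom called 3, the groups alone 6 and the surrogate variable 2; leaving out 1 heart gave 0. For TG against NTG after TAC (2 called), limma voom and the groups alone called 1 each, the surrogate variable 0, and leaving out 1 heart 1 to 6. After Sham and for the interaction, 0 were called in every setting run. The labels do not say whether replicate numbers pair the hearts. Over 35 pairs of equal number the median correlation of deviations was 0.0468 (-0.152 to 0.548), with 8 over 0.1. Pairs of unequal number were not compared, so these values cannot exclude pairing. With the replicate block 27 members were called for TAC in NTG hearts, 0 in TG hearts, 0 after Sham, 3 after TAC and 0 for the interaction. No scaling alternative moved the median of all genes by over 0.1.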
